A study of Mus musculus with 12 samples.

Results

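Azoxymethane (AOM) is a carcinogen whose breakdown products methylate the bases of DNA. The genes described here encode 8 mouse proteins that act on such methylated bases or on the mismatches they give rise to: Mgmt, Alkbh2, Mpg, Apex1, Msh3, Msh6, Pms2 and Exo1. They were chosen by name for this role and not by their measured values, though earlier results of these data were known. Each matched 1 of the 21792 gene rows of the expression table. All 8 were among the 21322 genes that were tested because their values averaged 1 or more.

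RNA was sequenced from colon tumours of mice on the FvB background that had all received AOM at 10 mg/kg, injected into the abdomen weekly for 6 weeks. The experiment ended 16 weeks after the first injection. There were 3 libraries for each of 4 genotypes: tumours lacking both miR-34a and p53 in intestinal epithelial cells (IEC; double deficient), tumours lacking p53 in IEC (p53 deficient), tumours lacking miR-34a in IEC (miR-34a deficient), and wt tumours. The deletions are epithelial, so vessels, connective tissue and immune cells of the deficient tumours keep both genes; the sources used here name neither the driver of the deletion nor the age of the animals, nor whether tumours were pooled. The values are normalized scores per gene, in which levels of different genes cannot be compared because they are not corrected for gene length.

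Cells meet methylated DNA with several repair routes. MGMT takes the methyl group off O6-methylguanine and is used up in doing so, and ALKBH2 removes methyl groups from other alkylated bases by oxidation. In base excision repair, MPG cuts out methylated purines and APEX1, the main endonuclease of this route, nicks the strand at the site left without a base. In mismatch repair, MSH6 and MSH3 are the partner subunits of the protein pairs that find mismatches and small loops, PMS2 nicks the strand to be replaced, and EXO1 removes it so that it can be copied again. O6-methylguanine pairs with thymine, and mismatch repair at such pairs can lead to cell death where the methyl group is not removed.

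The deleted microRNA, miR-34a, is a p53-induced RNA that pairs with messages through its seed, bases 2 to 8. Its mature sequence is shown because the search of the repair messages rests on it, with the seed in capitals, from RefSeq on GRCm38 (chr4:150068473-150068494, plus strand).
miR-34a-5p: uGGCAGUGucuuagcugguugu
The match to this seed, CACTGCC, was searched for in the longest 3′ untranslated region that GENCODE M21 annotates for each gene. None of the 8 repair genes held it, whereas 2541 of 16230 genes in the table with such a region did (15.7%). The shorter word ACTGCC, the match without its first letter, was not counted over all genes. It occurred 2 times in Exo1 and in none of the other repair genes. The annotated regions of several of these genes are short: that of Alkbh2 spans 22 bases, that of Msh6 87 and that of Apex1 166, so few letters were searched there. The absence of CACTGCC from the annotated region says nothing further about regulation by miR-34a.

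The libraries were first checked against their labels for p53 and tissue, and those for miR-34a were not checked. Trp53, the gene that encodes p53, had values of 924, 504 and 724 in double deficient tumours, 598, 401 and 576 in p53 deficient tumours, 4357, 3466 and 5120 in miR-34a deficient tumours and 4512, 4305 and 4126 in wt tumours. Against wt its log2 difference was -2.63 ± 0.24 in double deficient tumours and -3.06 ± 0.24 in p53 deficient tumours (SE, limma adjusted p = 0.000623 and 0.000753). All 10 colon epithelium markers were present in every library, with summed values between 508343 and 927505. Sums of the fibroblast markers ran from 9800 to 42639 and those of the T cell markers from 24 to 64, and sums of different lists cannot be compared. The T cell marker Cd8a was at 0 in at least 1 library. Other properties of the libraries also differed between genotypes. Averaged on the log2 scale, 4 Y-linked genes stood at 0.25 to 0.79 in double deficient libraries, 3.73 to 6.98 in p53 deficient libraries, 0 to 5.28 in miR-34a deficient libraries and 0 to 4.35 in wt libraries, and the sex of the animals is not in the labels. The mean log2 level of 25 proliferation genes was 11.38 to 11.70 in double deficient libraries, 11.39 to 11.66 in p53 deficient libraries, 10.81 to 10.99 in miR-34a deficient libraries and 10.96 to 11.81 in wt libraries, of which wt 3 was the highest of all 12. The sum of the matched red blood cell and liver markers, among them the haemoglobin gene Hba-a1, was 867 to 6644 in double deficient and 492 to 7725 in p53 deficient libraries, against 137 to 229 in miR-34a deficient and 83 to 378 in wt libraries, so that the libraries without and with p53 did not overlap. Neutrophil markers summed to 646 to 899 in double deficient, 66 to 1330 in p53 deficient, 114 to 1308 in miR-34a deficient and 65 to 216 in wt libraries, and endothelial markers to 1316 to 2304 in double deficient, 690 to 1241 in p53 deficient, 1232 to 1786 in miR-34a deficient and 572 to 1354 in wt libraries. Within genotypes the libraries also varied in 7 of 8 possible directions, with 47.2% of the weight of the absent one on double deficient 3, so the measured spread lacks part of the variation, in the double deficient group above all. What part these properties had in the results below was not tested except where a value is given, and in bulk tumours fewer cells of a type and less RNA per cell cannot be told apart.

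**Figure D1:**
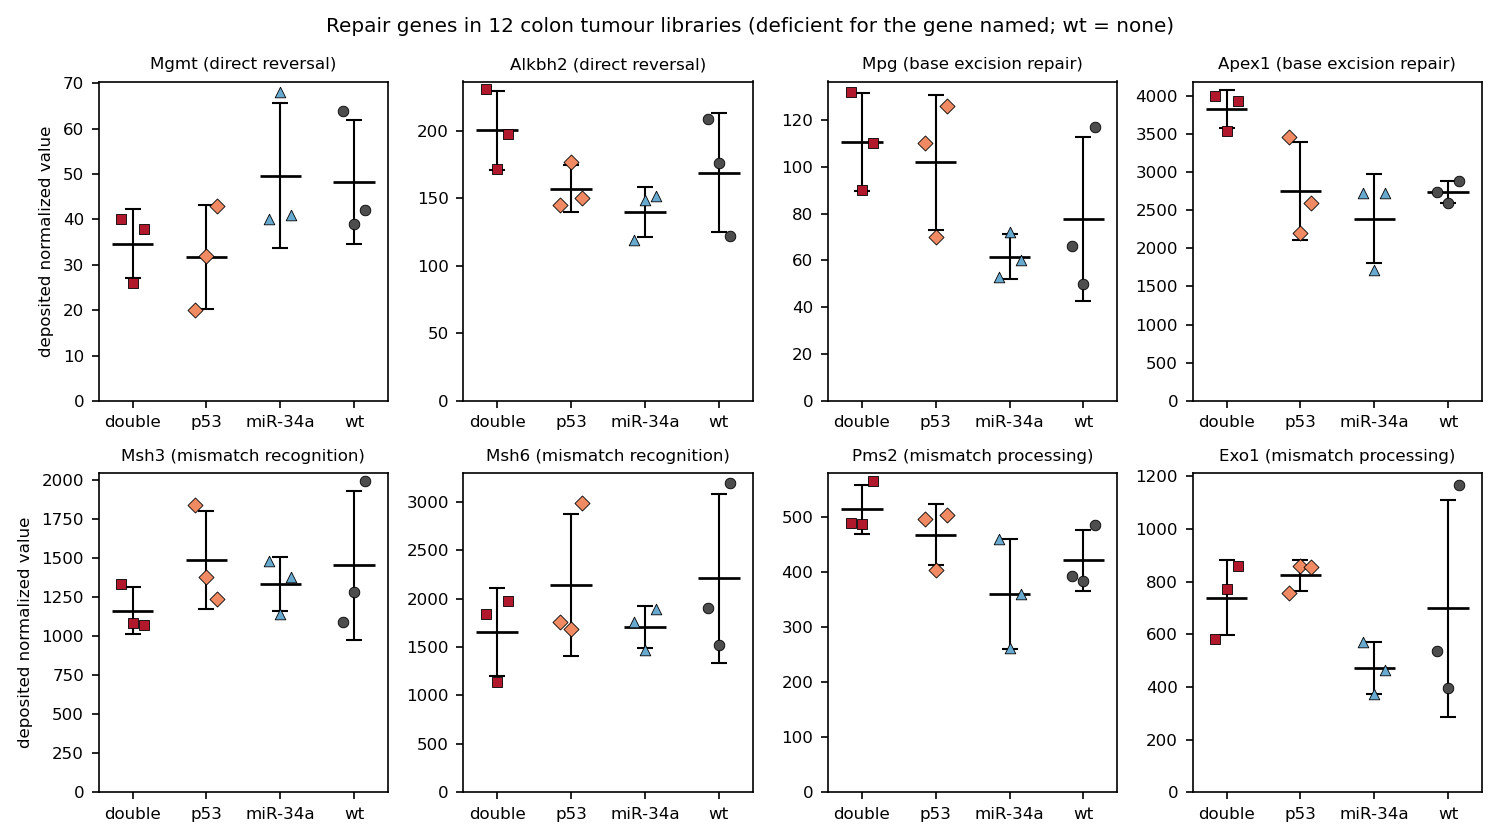
Deposited normalized value of each of 8 repair genes in every library (points), with the mean (wide bar) and SD (whiskers) of the 3 libraries of each genotype, on linear axes from 0. The 3 double deficient libraries lie above all 9 others for Apex1 only, at 3537 to 3990 against 1711 to 3453, and wt 3 is the highest library for Msh3, Msh6 and Exo1.

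No difference between genotypes passed the test for the direct reversal genes, and the group means of Mgmt lay lower in both groups without p53. Mgmt (chr7:136894614-137130266 on GRCm38, as for the positions below) had values of 40, 26 and 38 in double deficient tumours, 20, 32 and 43 in p53 deficient tumours, 40, 68 and 41 in miR-34a deficient tumours and 64, 39 and 42 in wt tumours. The lowest libraries, 20 and 26, were p53 deficient or double deficient and the highest, 68 and 64, were miR-34a deficient or wt, but the groups overlapped. Mgmt averaged 34.7 ± 7.57 in double deficient, 31.7 ± 11.5 in p53 deficient, 49.7 ± 15.9 in miR-34a deficient and 48.3 ± 13.7 in wt tumours (SD, n = 3 each). Its log2 difference was -0.46 ± 0.38 in double deficient tumours against wt (SE, limma adjusted p = 0.622) and -0.62 ± 0.38 in p53 deficient tumours against wt (limma adjusted p = 0.461). Over the 6 libraries without p53 against the 6 with it, the difference was -0.56 ± 0.27, with a 95% interval from -1.15 to 0.03 (limma adjusted p = 0.234). The 3.4-fold spread between its lowest and highest library was the widest of the 8 genes, at a mean value of 41.1 over all libraries.

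Alkbh2 (chr5:114123926-114128218) had values of 231, 172 and 198 in double deficient tumours, 145, 177 and 150 in p53 deficient tumours, 119, 149 and 152 in miR-34a deficient tumours and 209, 176 and 122 in wt tumours. All 3 double deficient libraries lay above all 3 miR-34a deficient ones, while the wt libraries covered nearly the whole range. Means were 200.3 ± 29.6, 157 ± 17.2, 140 ± 18.2 and 169 ± 43.9 in double deficient, p53 deficient, miR-34a deficient and wt tumours (SD, n = 3 each). The difference between double deficient and miR-34a deficient tumours, 0.51 ± 0.25 on the log2 scale, did not pass the threshold (limma adjusted p = 0.312). Against wt it was 0.27 ± 0.25 in double deficient tumours (limma adjusted p = 0.670). Alkbh2 shares 29.5% of its exon bases with Usp30 on the other strand, and whether the counting used strand is not given in the sources used here. Usp30 itself, a mitochondrial deubiquitinase gene, differed by 0.01 ± 0.17 between double deficient and miR-34a deficient tumours (limma adjusted p = 0.992).

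Of the base excision genes, Mpg (chr11:32226505-32232700) did not pass in any comparison, with higher means in both groups without p53. Its values were 132, 90 and 110 in double deficient tumours, 110, 70 and 126 in p53 deficient tumours, 53, 72 and 60 in miR-34a deficient tumours and 66, 50 and 117 in wt tumours. All 3 double deficient libraries lay above all 3 miR-34a deficient ones. The exception among the libraries with p53 was wt 3, at 117, while the other 5 were at 72 or below. Mpg averaged 111 ± 21.0 in double deficient, 102 ± 28.8 in p53 deficient, 61.7 ± 9.61 in miR-34a deficient and 77.7 ± 35.0 in wt tumours (SD, n = 3 each). Over the 6 libraries without p53 against the 6 with it, the log2 difference was 0.63 ± 0.25 with a 95% interval from 0.08 to 1.18, which did not pass after adjustment over all genes (limma adjusted p = 0.155). Between double deficient and miR-34a deficient tumours it was 0.83 ± 0.36 (limma adjusted p = 0.248). Mpg shares 35.7% of its exon bases with Nprl3 on the other strand, a subunit gene of the GATOR1 complex, which differed by 0.15 ± 0.17 in that comparison (limma adjusted p = 0.699).

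Apex1 (chr14:50924968-50927139) had its highest values in the double deficient tumours, above those of the other 3 genotypes. Its values were 3990, 3537 and 3935 in double deficient tumours, 3453, 2205 and 2588 in p53 deficient tumours, 2730, 1711 and 2725 in miR-34a deficient tumours and 2735, 2596 and 2881 in wt tumours. The lowest double deficient library, 3537, lay just above the highest of the other 9, p53 deficient 1 at 3453. Apex1 was the only one of the 8 genes with all double deficient libraries above the other 9, an order that 1.77% of the genes tested had. It averaged 3821 ± 247 in double deficient, 2749 ± 639 in p53 deficient, 2389 ± 587 in miR-34a deficient and 2737 ± 143 in wt tumours (SD, n = 3 each).

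None of the tests of Apex1 passed after adjustment. In double deficient tumours its log2 difference was 0.48 ± 0.20 against wt (95% interval 0.03 to 0.93, limma adjusted p = 0.292). It was 0.50 ± 0.20 against p53 deficient tumours (limma adjusted p = 0.276) and 0.71 ± 0.20 against miR-34a deficient tumours (95% interval 0.26 to 1.15, limma adjusted p = 0.111). With all libraries and no rescaling, neither deletion alone had a difference above 0, with log2 values of -0.02 ± 0.20 in p53 deficient and -0.23 ± 0.20 in miR-34a deficient tumours against wt (limma adjusted p = 0.977 and 0.934). That of p53 deficient tumours was above 0 in 6 of 24 other settings, at up to 0.13. The interaction, that is, the change with p53 loss in the absence of miR-34a minus that in its presence, was 0.73 ± 0.29 on the log2 scale (limma adjusted p = 0.572). These comparisons share the double deficient libraries, whose median Y-linked level was the lowest of the 4 genotypes and whose spread carries most of the missing direction. Over 24 other settings the difference of double deficient tumours against wt ranged from 0.44, with the Y-linked level added to the fit, to 0.53, and its limma adjusted p from 0.171 to 0.603. With the neighbouring gene Tmem55b, a phosphatidylinositol phosphatase gene that GENCODE names Pip4p1, Apex1 shares 61.7% of its exon bases on opposite strands. Tmem55b had values of 2406, 2519 and 2594 in double deficient tumours and 2713, 2162 and 2109 in wt tumours, which overlapped (log2 difference 0.12 ± 0.13, limma adjusted p = 0.736). In p53 deficient tumours it had 2117, 2096 and 2147, all below the double deficient values (0.24 ± 0.13, limma adjusted p = 0.410). Groups did not overlap in 19.6% of all genes in that comparison. Against miR-34a deficient tumours the difference was 0.12 ± 0.13 (limma adjusted p = 0.664). What part Tmem55b had in the values of Apex1 was not tested.

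Across the 12 libraries, the repair gene whose log2 values ran most closely with those of Apex1 was Pms2 (Pearson r = 0.829, and 0.782 over the deviations from the genotype means), the highest among all pairs of the 8. This is a description over libraries that share their normalization. Since the 2 genes moved together, the 120 bases before the start that comes first in RefSeq or GENCODE are shown for each, from RefSeq on the plus strand of GRCm38, at chr14:50924829-50924948 for Apex1 and chr5:143909844-143909963 for Pms2. Capitals mark the CCAAT box in either direction and the E-box CACGTG.
Apex1: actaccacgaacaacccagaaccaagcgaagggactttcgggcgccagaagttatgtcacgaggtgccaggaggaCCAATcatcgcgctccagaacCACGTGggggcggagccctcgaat
Pms2: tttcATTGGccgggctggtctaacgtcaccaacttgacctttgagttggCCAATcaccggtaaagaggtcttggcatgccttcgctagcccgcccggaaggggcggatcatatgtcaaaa
Motifs were searched on both strands in the 250 bases before the RefSeq start, which the table holds for 7 of the 8 genes, Exo1 being the other one. Apex1 held 1 CACGTG, at 24 to 19 bases before the start, a word found in 6.02% of 32851 promoters. CCAAT occurred once or more in 33.8% of promoters, with 1 match in Apex1, 1 in Msh6, 2 in Mpg and 3 in Pms2, and 2.79% of promoters held 3 or more. The Pms2 match at 33 to 29 bases before the RefSeq start lies past the GENCODE start, so it is not in the stretch shown. The E2F-type words TTTGGCGC and TTTCCCGC stood in 1.3% of promoters and, of the 7, in Msh3. The words searched do not overlap one another, and a match is not evidence that a factor binds there.

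No difference of the mismatch recognition genes passed, and all groups overlapped in both. Msh3 (chr13:92211872-92355003) had values of 1334, 1082 and 1067 in double deficient tumours, 1835, 1380 and 1239 in p53 deficient tumours, 1478, 1143 and 1374 in miR-34a deficient tumours and 1089, 1278 and 1991 in wt tumours. The 2 lowest libraries were both double deficient. Msh3 averaged 1161 ± 150.01, 1485 ± 311, 1332 ± 171 and 1453 ± 476 in double deficient, p53 deficient, miR-34a deficient and wt tumours (SD, n = 3 each). The log2 difference against wt was -0.28 ± 0.23 in double deficient, 0.06 ± 0.23 in p53 deficient and -0.09 ± 0.23 in miR-34a deficient tumours (limma adjusted p = 0.617, 0.929 and 0.988).

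Msh6 (chr17:87975062-87990892) had 2 libraries far above the rest. Its values were 1842, 1138 and 1979 in double deficient tumours, 1757, 1682 and 2986 in p53 deficient tumours, 1759, 1471 and 1895 in miR-34a deficient tumours and 1907, 1523 and 3193 in wt tumours. These were wt 3 and p53 deficient 3, and the highest of the other 10 was at 1979. Means were 1653 ± 451, 2142 ± 732, 1708 ± 216 and 2208 ± 875 in double deficient, p53 deficient, miR-34a deficient and wt tumours (SD, n = 3 each). The log2 difference against wt was -0.39 ± 0.31 in double deficient tumours, with a 95% interval from -1.07 to 0.29 (limma adjusted p = 0.608). It was -0.02 ± 0.31 in p53 deficient and -0.31 ± 0.31 in miR-34a deficient tumours (limma adjusted p = 0.980 and 0.947).

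The group means of Pms2 (chr5:143909964-143933968) stood in the same order as those of Apex1. It had values of 488, 487 and 564 in double deficient tumours, 496, 403 and 503 in p53 deficient tumours, 460, 261 and 359 in miR-34a deficient tumours and 393, 384 and 485 in wt tumours. The lowest double deficient library, 487, was just above the highest wt library, 485. Pms2 averaged 513 ± 44.2 in double deficient, 467 ± 55.8 in p53 deficient, 360 ± 99.5 in miR-34a deficient and 421 ± 55.9 in wt tumours (SD, n = 3 each). Its log2 difference was 0.29 ± 0.22 in double deficient tumours against wt (limma adjusted p = 0.584) and 0.54 ± 0.22 against miR-34a deficient tumours (limma adjusted p = 0.223). Over the 6 libraries without p53 against the 6 with it, the difference was 0.35 ± 0.16 (95% interval 0.01 to 0.69, limma adjusted p = 0.202).

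Exo1 (chr1:175880581-175913489) had values close in pattern to those of the proliferation genes, and no difference between genotypes passed with all libraries in. It had values of 584, 773 and 860 in double deficient tumours, 756, 860 and 855 in p53 deficient tumours, 572, 375 and 464 in miR-34a deficient tumours and 535, 395 and 1168 in wt tumours. All 6 libraries without p53 lay above 5 of the 6 with it, and the exception was wt 3, the highest of all 12. Exo1 averaged 739 ± 141 in double deficient, 824 ± 58.7 in p53 deficient, 470 ± 98.7 in miR-34a deficient and 699 ± 412 in wt tumours (SD, n = 3 each). Over the 6 libraries without p53 against the 6 with it, the log2 difference was 0.52 ± 0.24 and did not pass (95% interval -0.0015 to 1.04, limma adjusted p = 0.211). Without wt 3 the difference was 0.75 and passed (limma adjusted p = 0.0315), the only setting of those tried in which any of the 8 genes passed any comparison, and over all settings the adjusted p of this difference ranged from 0.0315 to 0.393.

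The proliferation marker Mki67 had values of 7526, 11166 and 11399 in double deficient tumours, 9699, 13905 and 12766 in p53 deficient tumours, 8804, 5937 and 7384 in miR-34a deficient tumours and 5709, 7257 and 11344 in wt tumours. Mcm6, a subunit of the replicative helicase, had 3296, 3515 and 4626 in double deficient tumours, 3529, 3981 and 4734 in p53 deficient tumours, 2214, 1687 and 2091 in miR-34a deficient tumours and 3328, 2104 and 5719 in wt tumours. In both genes wt 3 was the highest wt library, as it was in Exo1. The log2 value of Exo1 correlated with the mean log2 value of the 25 proliferation genes at r = 0.949 over the 12 libraries (Spearman rho = 0.967), at 0.953 over the deviations from the genotype means and at 0.939 without wt 3. The same correlation over the 12 libraries was 0.768 for Mpg, 0.753 for Pms2, 0.482 for Apex1, 0.469 for Msh6, 0.212 for Msh3, 0.06 for Alkbh2 and -0.440 for Mgmt. Over the deviations from the genotype means it was 0.554 for Mpg, 0.500 for Pms2, 0.112 for Apex1, 0.711 for Msh6, 0.452 for Msh3, -0.677 for Alkbh2 and -0.035 for Mgmt. Without wt 3 the correlation over libraries, not over deviations, was 0.281 for Msh6 in place of 0.469. For Msh3 it was -0.097 in place of 0.212, so both depend on this library. What part the proliferation level had in the differences of Exo1 was not tested.

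**Figure D2:**
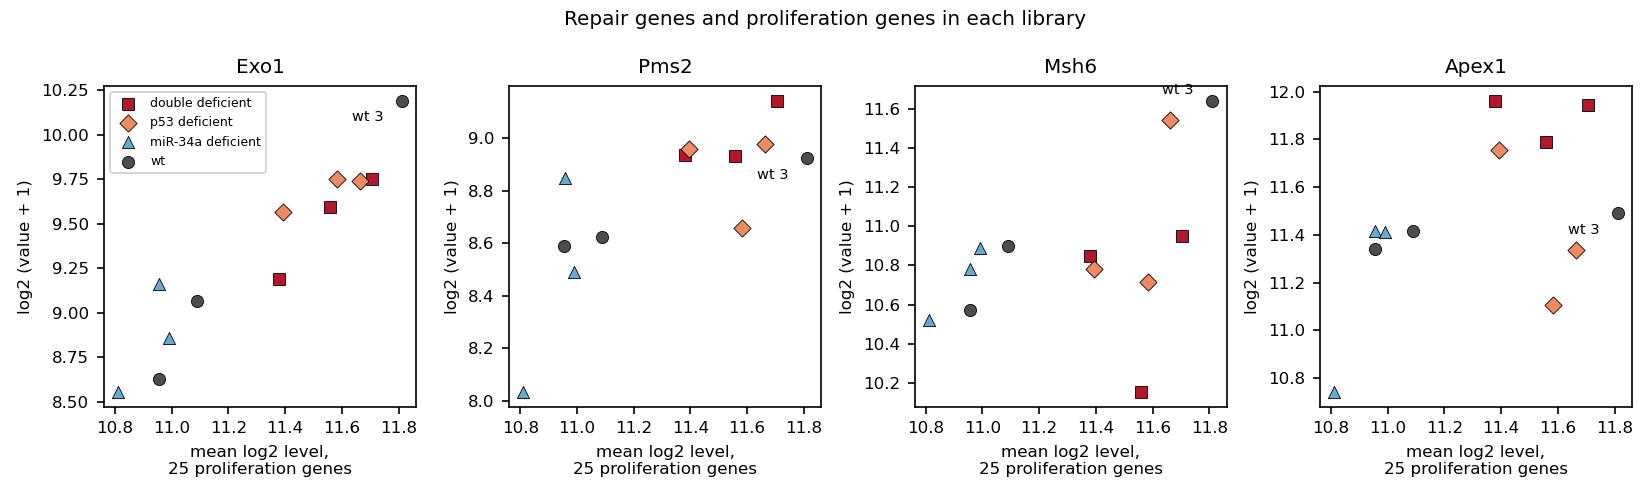
Log2 of the normalized value plus 1 of Exo1, Pms2, Msh6 and Apex1 (y axes) against the mean log2 value of 25 proliferation genes (x axes) in the 12 libraries, with symbols for genotype. The Exo1 points lie along a line (r = 0.949) with wt 3 at its upper end, while the 3 double deficient points of Apex1 lie above all others.

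The calls of the 8 repair genes were then set against those of all genes. In double deficient tumours against wt, 0 of the 8 passed an adjusted p under 0.05 (limma), where 0.802% of the genes tested did. At an unadjusted p under 0.05 there was 1 repair gene, Apex1, and 15.3% of all genes. The 3 double deficient and 3 wt libraries did not overlap in Apex1 and Pms2, 2 of 8, against 19.8% of all genes. The median log2 difference of the 8 was 0.24, with 5 above 0 and 3 below, and that of all genes 0.02.

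In p53 deficient tumours against wt, 0 of 8 passed (limma) and 0 had an unadjusted p under 0.05, where 0.0234% of all genes passed and 15.3% had an unadjusted p under 0.05. None of the 8 had groups that did not overlap, and 16.2% of all genes did. The median log2 difference was 0.02, with 4 above 0 and 4 below. In miR-34a deficient tumours against wt, 0 of 8 passed (limma) and 0 had an unadjusted p under 0.05, where 0.0375% of all genes passed and 6.09% had an unadjusted p under 0.05. None of the 8 had groups that did not overlap, against 10.1% of all genes. All but Mgmt lay below wt in these tumours, with log2 differences between -0.44 ± 0.34 for Exo1 and 0.03 ± 0.38 for Mgmt and a median of -0.25 against 0.03 for all genes. This pattern depended on wt 3, without which Exo1 stood at 0.01, Mpg at 0.09, Msh3 at 0.17 and Mgmt at -0.05. Their adjusted p ran from 0.924 to 0.996 (limma), and with 3 libraries a group the 95% intervals of all 8 included 0.

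In double deficient tumours against p53 deficient tumours, which sets the loss of miR-34a on a p53 deficient background, 0 of 8 passed (limma) and 1, Apex1, had an unadjusted p under 0.05, where 0.605% of all genes passed and 15.1% had an unadjusted p under 0.05. Apex1 was also the 1 gene of the 8 whose groups did not overlap, against 19.6% of all genes. The other 7 had adjusted p between 0.514 and 0.884 (limma). The Y-linked level was 0.25 to 0.79 in double deficient and 3.73 to 6.98 in p53 deficient libraries. Between these 2 groups it therefore cannot be told apart from the loss of miR-34a. Of all genes 129 passed here, and 7 with the Y-linked level added to the fit (limma). In double deficient tumours against miR-34a deficient tumours, which sets the loss of p53 on a miR-34a deficient background, 0 of 8 passed (limma) and 3, Apex1, Pms2 and Mpg, had an unadjusted p under 0.05, where 0.905% of all genes passed and 18% had an unadjusted p under 0.05. Here the groups did not overlap in 5 of the 8, Alkbh2, Mpg, Apex1, Pms2 and Exo1, all higher in double deficient tumours, against 27.3% of all genes in either direction. The median log2 difference of the 8 was 0.53, and that of all genes -0.06.

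Over the 6 libraries without p53 against the 6 with it, 0 of 8 passed (limma) and 3, Mpg, Apex1 and Pms2, had an unadjusted p under 0.05, where 5.05% of all genes passed and 23.8% had an unadjusted p under 0.05. None of the 8 had groups that did not overlap, against 2.84% of all genes. The median log2 difference was 0.28, with 5 above 0 and 3 below, and that of all genes -0.06. The interaction of both deletions passed in 0 of 8 (limma) and in 0.0234% of all genes, and had an unadjusted p under 0.05 in 1 of 8, Apex1, and in 7.89% of all genes. Because the comparisons share libraries, their values do not count as separate evidence.

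**Figure D3:**
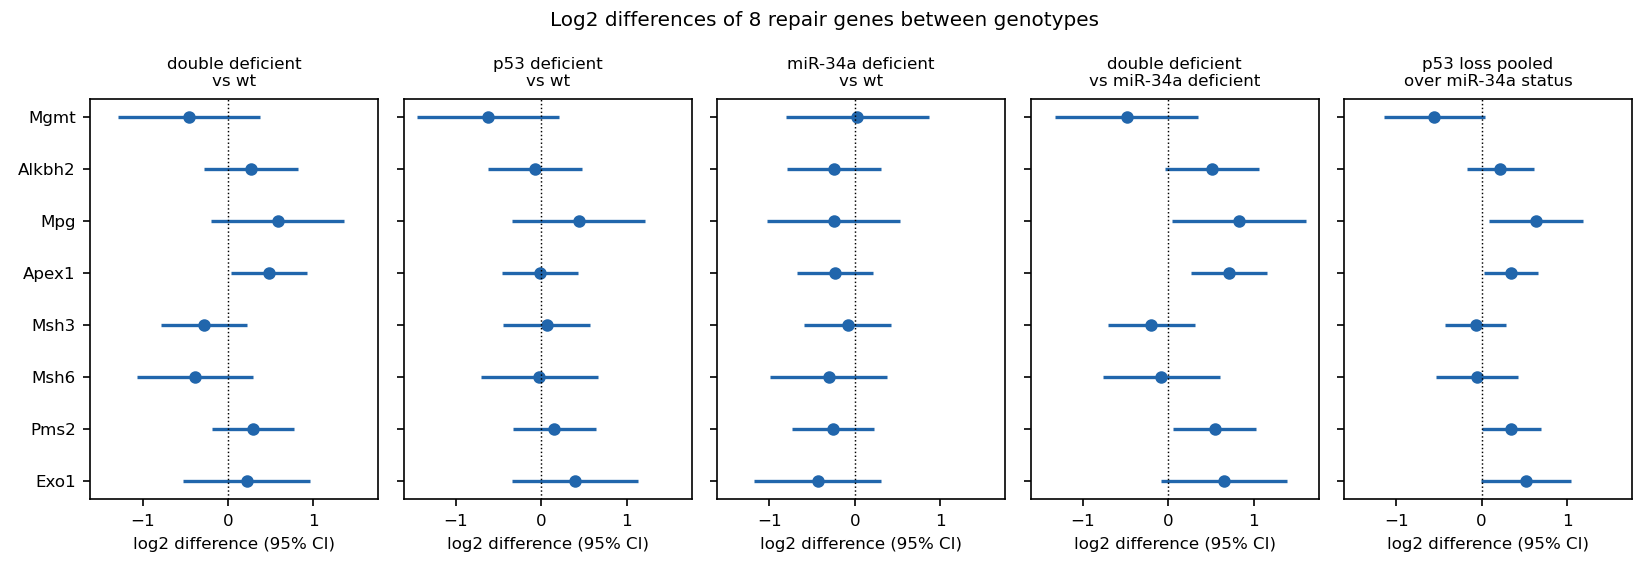
Log2 difference of each of 8 repair genes in 5 comparisons (points) with its 95% confidence interval (lines), from limma over the 12 libraries, and a dotted line at 0. The intervals above 0 are that of Apex1 in double deficient tumours against wt and those of Mpg, Apex1 and Pms2 in double deficient against miR-34a deficient tumours and in the pooled comparison, and none of the 8 genes passed after adjustment over all genes.

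The wider repair pathways were described with lists of genes of each route. In the list for alkylation damage, 7 genes that hold Mgmt, Alkbh2, Mpg, the demethylase gene Alkbh3 and the genes of the ASCC complex that works with it, none passed in any of the 7 comparisons (limma). Beside the genes above, the smallest p-values belonged to Ascc1 and Ascc3. Ascc1 had a log2 difference of -0.36 ± 0.18 in p53 deficient tumours against wt and of 0.46 ± 0.18 in double deficient against p53 deficient tumours (limma adjusted p = 0.354 and 0.245). Ascc3, the helicase of the complex, had a log2 difference of 0.48 ± 0.21 in miR-34a deficient tumours against wt (limma adjusted p = 0.810), and Alkbh3 had one of 0.45 ± 0.32 in double deficient tumours against wt (limma adjusted p = 0.552).

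Among 24 genes of base excision repair, Mpg and Apex1 included, none passed in any of the 7 comparisons (limma). In double deficient tumours against wt 20 of the 24 lay above 0, with a median log2 difference of 0.19 against 0.02 for all genes and 4 genes at an unadjusted p under 0.05, as had 15.3% of all genes. In double deficient against miR-34a deficient tumours 20 of 24 lay above 0, with a median of 0.34 against -0.06 and 10 genes at an unadjusted p under 0.05, as had 18% of all genes. In miR-34a deficient tumours against wt 8 lay above 0, with a median of -0.11. In p53 deficient tumours against wt 10 of 24 lay above 0, with a median of -0.01 against -0.04 for all genes. In the pooled comparison 17 of 24 did, with a median of 0.26 against -0.06. Lig3, the ligase that seals the nick together with XRCC1, had a log2 difference of 0.76 ± 0.22 in p53 deficient tumours against wt (limma adjusted p = 0.154) and of 0.54 ± 0.15 over the 6 libraries without p53 against the 6 with it (limma adjusted p = 0.0631). Neil1, a glycosylase for oxidized bases, had one of -0.70 ± 0.19 in p53 deficient tumours against wt (limma adjusted p = 0.146), and Polb, the gap-filling polymerase, one of -0.35 ± 0.11 over the 6 libraries without p53 against the 6 with it (limma adjusted p = 0.0826). Apex2, a relative of Apex1, had one of 0.51 ± 0.20 and Lig1, the replicative ligase, one of 0.71 ± 0.21, the first in double deficient tumours against wt and the second against miR-34a deficient tumours (limma adjusted p = 0.248 and 0.119).

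The list for mismatch repair had 22 genes that also hold the replication clamp, its loader, the single-strand binding protein and polymerase delta. Of these, Pold2 and Rfc4 passed in the pooled comparison (limma), both higher without p53. Both are replication genes as well: POLD2 is a subunit of polymerase delta and RFC4 one of the clamp loader. Pold2 averaged 1725 ± 458 in double deficient, 1555 ± 275 in p53 deficient, 767 ± 57.3 in miR-34a deficient and 944 ± 196 in wt tumours (SD, n = 3 each). Its log2 difference over the 6 libraries without p53 against the 6 with it was 0.93 ± 0.16 (limma adjusted p = 0.0171). Rfc4 averaged 994 ± 104, 896 ± 76.8, 495 ± 15.5 and 699 ± 252 in double deficient, p53 deficient, miR-34a deficient and wt tumours, with a log2 difference of 0.71 ± 0.16 in the same comparison (limma adjusted p = 0.0347). Against wt neither passed. In p53 deficient tumours Pold2 stood at 0.73 ± 0.23 and Rfc4 at 0.42 ± 0.23 (limma adjusted p = 0.186 and 0.415). In double deficient tumours they stood at 0.85 ± 0.23 and 0.56 ± 0.23 (limma adjusted p = 0.121 and 0.267). In the pooled comparison neither passed without double deficient 3, at adjusted p = 0.0623 for Pold2 and 0.108 for Rfc4 (limma). The call of Rfc4 held in 11 of 23 other settings. It was also lost when any 1 of wt 1, miR-34a deficient 1, 2 or 3, p53 deficient 2 or 3, or double deficient 2 was left out, at limma adjusted p between 0.0535 and 0.0754, and when the Y-linked level was added to the fit (0.0521). Without wt 3, 4 genes of the list passed in the pooled comparison (limma), as did 15 of the 25 proliferation genes. With libraries left out in turn, 71 to 1328 of all genes passed there (limma). In double deficient against miR-34a deficient tumours Pold2 passed at 1.13 ± 0.23 (limma adjusted p = 0.0492), a call that 5 of 24 other settings kept, with adjusted p up to 0.245 without double deficient 3. In the pooled comparison 2 of the 22 thus passed, where 5.05% of all genes did, and 15 of the 22 lay above 0, with a median of 0.08 against -0.06 for all genes. In miR-34a deficient tumours against wt 20 of the 22 lay below 0, with a median of -0.27 against 0.03, 3 genes at an unadjusted p under 0.05, as had 6.09% of all genes, and none past the threshold (limma). The clamp gene Pcna had the smallest p there, at -0.49 ± 0.18 (limma adjusted p = 0.757), and the loader gene Rfc2 the next, at -0.35 ± 0.15 (limma adjusted p = 0.810). What part wt 3 had in the differences of the list in this comparison was not tested.

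The 25 proliferation genes had medians on the same side of 0 as the mismatch list in these comparisons, but not in all. In double deficient tumours against wt the median was -0.01 for the mismatch list, with 10 of 22 genes above 0. For the proliferation list it was 0.26 there, with 24 of 25 above 0. In double deficient against p53 deficient tumours the medians were 0.08 for the mismatch list and -0.01 for the proliferation list. In the pooled comparison all 25 lay above 0, with a median of 0.44, and 3 of 25 passed, where 5.05% of all genes did: Tk1, a nucleotide salvage kinase, at 0.85 ± 0.15, Birc5, or survivin, at 0.63 ± 0.13, and the mitotic kinase Aurka at 0.41 (limma adjusted p = 0.0191, 0.0264 and 0.0475). Without double deficient 3 none of these 3 passed, at adjusted p = 0.0676, 0.0924 and 0.141 (limma), and the calls of Birc5 and Aurka held in 14 and 10 of 23 other settings. In miR-34a deficient tumours against wt all 25 lay below 0, with a median of -0.39 and none past the threshold (limma), although 5 had an unadjusted p under 0.05, as had 6.09% of all genes. The mean log2 level of the 25 genes was 11.81 in wt 3, 11.09 in wt 1 and 10.96 in wt 2. In miR-34a deficient libraries it was 10.81 to 10.99. What part wt 3 had in the differences of this list between miR-34a deficient and wt tumours was not tested. The summed red blood cell and liver markers did not overlap between the libraries without and with p53, as given above. What part they or the proliferation level had in the values of the mismatch list was not tested.

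**Figure D4:**
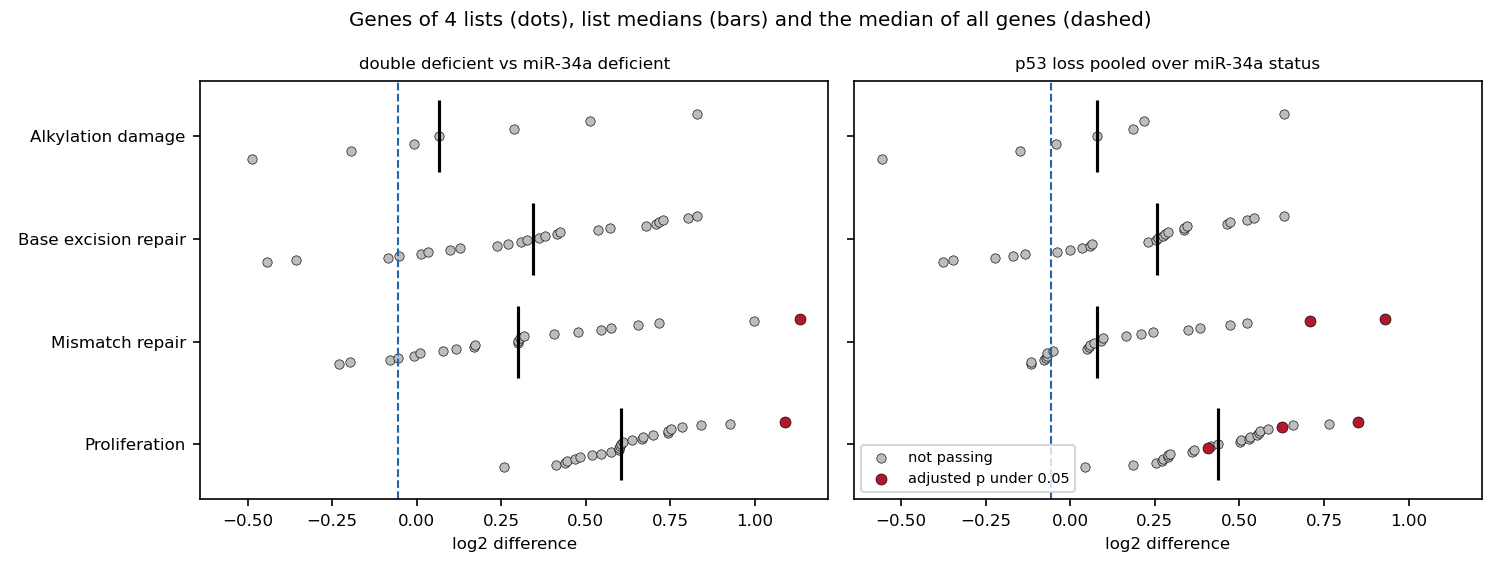
Log2 differences of the genes of 4 lists (dots, red where the adjusted p was under 0.05), with list medians (black bars) and the median of all genes tested (dashed line), in double deficient against miR-34a deficient tumours and over the 6 libraries without p53 against the 6 with it. Pold2 and Rfc4 are the red dots of the mismatch list in the right panel, and all 25 proliferation genes lie above 0 in both panels.

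The genes that ran most closely with each repair gene over the 12 libraries were looked up among 11871 genes whose values averaged 100 or more, by Pearson r of the log2 values. For Exo1 they were Dtl (r = 0.985), a substrate receptor of the CUL4 ubiquitin ligase in S phase, Rfwd3 (0.964), a ubiquitin ligase of the replication stress response, and Usp1 (0.963), a deubiquitinase that acts on PCNA. Dtl averaged 988 ± 184 in double deficient, 1128 ± 86.4 in p53 deficient, 618 ± 156 in miR-34a deficient and 999 ± 606 in wt tumours (SD, n = 3 each), in the order of Exo1 except that wt lay above double deficient tumours. For Pms2 they were Thumpd1 (0.913), Pno1 (0.909), a ribosome assembly factor, and Pole (0.904), the catalytic subunit of polymerase epsilon. For Apex1 they were Drg1 (0.900), Ddx1 (0.894), an RNA helicase, and Rnf26 (0.886).

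For Mpg the closest genes were Gmps (0.909), the GMP synthetase, Psme1 (0.907), a proteasome activator subunit, and Insl6 (0.900). Msh6 ran with Taf11 (0.908), a subunit of TFIID, Zfp101 (0.890) and Ube2e3 (0.885), and Msh3 with Zfx (0.921), Ube2cbp (0.905) and Fn3krp (0.901). Alkbh2 ran with Eif3k (0.919), a translation initiation subunit, Mocs3 (0.900) and Sugt1 (0.899), and Mgmt with Nsmf (0.875), Ppapdc1b (0.868) and Phldb1 (0.842). With so many genes searched over 12 libraries high values of r are common, so these names are a description only.

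Among the 8 genes themselves, likeness was uneven. After Apex1 and Pms2 the closest pair by r over the libraries was Pms2 and Exo1, the 2 genes of mismatch processing (r = 0.749, and 0.629 over the deviations from the genotype means). Over the deviations Mpg and Msh6, of different routes, were closer, at 0.769 (0.468 over the libraries), and Alkbh2 and Exo1 stood at -0.739. Msh3 and Msh6 had an r of 0.457, and Mgmt and Alkbh2, both direct reversal genes, one of 0.102. Mgmt ran opposite to Pms2 (r = -0.582) and Alkbh2 opposite to Msh3 (r = -0.611). Of the 8 genes, placed by GENCODE M21, Alkbh2 and Pms2 are the ones that share a chromosome, and their r was 0.08.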

How the data were processed

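RNA of 12 AOM-induced colon tumour samples was measured by RNA sequencing. The authors deposited scores, that is, whole numbers for each gene symbol that had been normalized beforehand. Per the submitters' processing notes the genome build was mm10. The sources used here give neither the aligner, nor the counting and its use of strand, nor the way of normalizing. Upper quartiles of 1905 to 1982.25 beside column sums of 45310209 to 101121673 show that the values are not raw counts, so depth and counting precision are unknown. The gene Xist alone made up 52.8% of the sum of miR-34a deficient 1 and 23.2% of that of wt 1, and at most 5.92% in the other libraries. The 12 columns were matched to samples by their titles.

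Each value plus 1 was put on the log2 scale and limma 3.58.1 (R 4.3.3) tested the 21322 of 21792 genes whose mean reached 1 (trend in the prior variance, 1 mean per genotype, 8 residual degrees of freedom). A gene passed at a Benjamini-Hochberg adjusted p under 0.05 over all genes tested. Differences are on this scale, which understates those of low values such as Mgmt. The labels do not state whether replicates came from separate animals, so p-values measure only the spread between these samples. The numbers of the replicates did not serve as pairs.

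The 8 genes, the lists and the tests were chosen with earlier results of these data known. Named are the 8 genes, Trp53, list genes that passed (at most 5 a direction) or else had the 2 smallest p (examples are given), Mki67 and Mcm6, genes overlapping the 8, and the 3 genes with the highest r. The code was tested on simulated data. Results of some list genes are not reported here by name. Sequences come from RefSeq and GENCODE M21 (GRCm38).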

Additional observations from a re-analysis of the deposited data

How the results depend on the processing

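Each result was recomputed under 24 alternatives (23 for the pooled comparison and the interaction, which use all groups). Of 1321 settings of the 56 differences of the 8 genes, 1 passed, that of Exo1 named above, so the number passing in the pooled comparison was 0 to 1 with libraries left out in turn. Mgmt has no value with a minimum mean of 50. In 52 settings, within 19 differences, the sign turned; none of these differences passed, and the cause was not tested. On the log2 scale, median-of-ratios rescaling gave 0.0151 for Apex1 and 0.00915 for Msh6 in p53 deficient tumours against wt and -0.0173 for Mgmt in miR-34a deficient tumours against wt, and upper-quartile rescaling 0.00352 for Apex1 in p53 deficient tumours against wt. Quantile normalization gave 0.109 for Alkbh2 in p53 deficient and -0.207 for Mgmt in miR-34a deficient tumours against wt, and -0.00212 for Mgmt and -0.0102 for Mpg in double deficient against p53 deficient tumours. Adding the Y-linked level to the fit gave 0.0395 for Apex1 in p53 deficient tumours against wt, 0.124 for Msh6 and 0.0898 for Exo1 in double deficient against p53 deficient tumours, 0.142 for Msh6 in double deficient against miR-34a deficient tumours and 0.459 for its interaction. Without the 2 libraries of the less common run code, values were -0.103 for Msh3 and 0.0931 for Msh6 in p53 deficient tumours against wt, -0.119 for Mgmt in double deficient against p53 deficient tumours, 0.0189 for Msh6 in the pooled comparison and -0.280 for the interaction of Mgmt.

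With libraries left out in turn, differences against wt ran from -0.116 to 0.665 for Exo1 in double deficient tumours. In p53 deficient tumours they ran from -0.290 to 0.0963 for Alkbh2, -0.124 to 0.311 for Msh3, -0.195 to 0.128 for Apex1 and -0.289 to 0.278 for Msh6. In miR-34a deficient tumours they ran from -0.215 to 0.245 for Mgmt, -0.516 to 0.0892 for Mpg, -0.269 to 0.166 for Msh3 and -0.769 to 0.0116 for Exo1. Double deficient against p53 deficient tumours gave -0.119 to 0.414 for Mgmt and -0.106 to 0.314 for Mpg, and double deficient against miR-34a deficient tumours -0.231 to 0.168 for Msh6. The pooled comparison gave -0.160 to 0.0570 for Msh3 and -0.185 to 0.0988 for Msh6, and the interaction -0.149 to 0.385 for Mgmt, -0.358 to 0.209 for Msh6 and -0.184 to 0.597 for Exo1.

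The number of genes that passed, out of all tested, moved more. In double deficient tumours against wt (171) it was 102 with a replicate block, 80 with the Y-linked level, 57 with the missing direction, 74 without the other run code, 102 with only the groups compared and 29 to 261 with libraries left out. In p53 deficient tumours against wt (5) it was 3 with a pseudocount of 10, 2 with no filter, 2 with the block, 1 with the Y-linked level, 2 with the missing direction, 8 without the other run code, 1 with only the groups compared and 1 to 88 with libraries left out. In miR-34a deficient tumours against wt (8) it was 5 with quantile normalization, with no trend, with the Y-linked level and with the missing direction, and 4 to 12 with libraries left out. In double deficient against p53 deficient tumours (129) it was 57 with no trend, 7 with the Y-linked level, 47 with the missing direction, 12 with only the groups compared and 27 to 294 with libraries left out. In double deficient against miR-34a deficient tumours (193) it was 73 with the Y-linked level, 57 with the missing direction, 79 without the other run code and 23 to 246 with libraries left out. In the pooled comparison (1076) it was 626 with no trend, 676 with the Y-linked level, 321 with the missing direction, 508 without the other run code and 71 to 1328 with libraries left out, and for the interaction (5) 3 with the block, 1 with the Y-linked level, 2 with the missing direction and 2 to 10 with libraries left out. The count without double deficient 3 was the lowest of those left out in double deficient tumours against wt, p53 deficient and miR-34a deficient tumours and in the pooled comparison. The replicate numbers share only a name: 7 of 18 pairs of libraries with the same number deviated together at r over 0.1, and 3 of 12 libraries lay closest to one of their own number. The block changed no call of the 8 genes. Depth is unknown, so the counting error of the low values of Mgmt and Mpg could not be given.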
